A study of Mus musculus with 4 samples.

Results

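The testis-specific serine kinases (TSSKs) were examined together with *Camk4* and *Csnk2a2* in testes with and without the exoribonuclease NEF-sp. The members were all genes in the exon sense rows of the count table whose symbol begins with Tssk, plus *Camk4* and *Csnk2a2*, which gave 8 genes of 12415. They were *Tssk1*, *Tssk2*, *Tssk3*, *Tssk4*, *Tssk5*, *Tssk6*, *Camk4* and *Csnk2a2*, and they held 15 rows when intron and antisense rows were included. The rule itself uses gene symbols and no measured value.

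Total testicular RNA came from adult mice at postnatal day 60 on the C57Bl/6J background, with 2 libraries of *Nef-sp* -/- and 2 of *Nef-sp* +/- mice. Both genotypes carried the same Cas9 nickase allele, an out-of-frame deletion of 23 bases from 1 mutant line, on both chromosomes in *Nef-sp* -/- and on one chromosome in *Nef-sp* +/-, so that the controls, called heterozygous below, were not wild-type, and the *Nef-sp* -/- libraries are called homozygous. The libraries were strand specific, depleted of ribosomal RNA and read for 50 cycles, and held between 20659865 and 34442517 counted reads, of which 15815159 to 26618821 were exon sense reads of genes. The labels do not say that replicates were separate animals, so the p-values measure the spread between these libraries, which may be technical. *Nef-sp* +/- replicate 1 stood apart from the other libraries for several of the kinase genes, and the values of these genes without it are given after the comparison.

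TSSKs are protein kinases made mainly in haploid male germ cells, after meiosis, when round spermatids remodel into sperm. Several of them are needed for male fertility in mice: *Tssk1* and *Tssk2* are neighboring genes whose joint loss blocks sperm formation, and loss of *Tssk3* or *Tssk6* causes male infertility. *Camk4* encodes a calcium/calmodulin-dependent kinase that acts on the transcription factor CREB and on protamine 2 in spermatids. *Csnk2a2* encodes a catalytic subunit of casein kinase 2 (CK2), whose loss produces round-headed sperm.

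Gene models were those of GENCODE vM1 on mm9. *Tssk1* (ENSMUSG00000041566) lies on the plus strand at chr16:17894296-17895744 and *Tssk2* (ENSMUSG00000045521) on the same strand at chr16:17898730-17900116, 2985 bases downstream. Each has 1 exon. *Tssk6* (ENSMUSG00000047654, chr8:72426083-72427415, plus strand) also has 1 exon, and 375 of its bases overlap *Ndufa13* on the opposite strand, where only the strand of a read separates the genes. *Tssk3* (ENSMUSG00000000411, chr4:129166258-129168266, minus strand) has 2 exons, *Tssk4* (ENSMUSG00000007591, chr14:56269019-56271376, plus strand) has 3 or 4 and *Tssk5* (ENSMUSG00000060794, chr15:76202388-76205368, minus strand) has 8. *Csnk2a2* (ENSMUSG00000046707, chr8:97969996-98012727, minus strand) has 11 or 12 exons.

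*Tssk1* and *Tssk2* share stretches as long as a read, which bears on how far their counts can be told apart. Their coding sequences, of 1098 and 1077 bases, were 78.7% identical in a global alignment, whereas every other pair of TSSK coding sequences was between 57.1% and 61.7% identical. Of the stretches of 50 bases in the exons, 125 of 1400 in *Tssk1* (8.93%) and 125 of 1338 in *Tssk2* (9.34%) matched mm9 perfectly in more than 1 place. All 125 were shared by the pair, and they fell into 2 identical runs of 113 and 110 bases within the coding sequences. The runs are shown because a read inside them matches both genes. Each is printed with 20 bases on either side, in which capitals mark the bases that differ between the genes. The first run covers coding bases 371 to 483 of both genes, and the shown stretches lie at chr16:17894796-17894948 and chr16:17899178-17899330 on the plus strand of mm9.
Tssk1 run 1: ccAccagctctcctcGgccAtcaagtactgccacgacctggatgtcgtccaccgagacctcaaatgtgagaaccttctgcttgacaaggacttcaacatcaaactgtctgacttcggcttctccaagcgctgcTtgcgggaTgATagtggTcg
Tssk2 run 1: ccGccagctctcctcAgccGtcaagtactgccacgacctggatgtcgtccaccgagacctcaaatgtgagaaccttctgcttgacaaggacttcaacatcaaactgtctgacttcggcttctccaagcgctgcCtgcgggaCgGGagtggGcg
The second run covers coding bases 547 to 656 of both genes, at chr16:17894972-17895121 and chr16:17899354-17899503 with its flanks.
Tssk1 run 2: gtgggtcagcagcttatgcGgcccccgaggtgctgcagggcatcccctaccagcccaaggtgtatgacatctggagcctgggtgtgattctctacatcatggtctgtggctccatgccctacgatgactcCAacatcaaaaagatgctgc
Tssk2 run 2: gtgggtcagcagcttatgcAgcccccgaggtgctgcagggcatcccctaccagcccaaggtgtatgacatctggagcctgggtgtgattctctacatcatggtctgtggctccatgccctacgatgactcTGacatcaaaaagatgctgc
How the authors counted reads with several perfect matches is not given in the sources used here. The counts of *Tssk1* and *Tssk2* are therefore uncertain over these stretches. No stretch of 50 bases with a second match was found in the exons of *Tssk3*, *Tssk4*, *Tssk5*, *Tssk6* or *Csnk2a2*, and in *Camk4* 133 of 11865 (1.12%) had one.

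The 8 genes differed widely in level. Levels are given as RPKM, here the exon sense reads scaled to the annotated exon length in kb and to the exon sense reads of the library, as mean ± SD over the 4 libraries. *Tssk2* was at 564.4 ± 31.2 (SD, n = 4) and *Tssk1* at 451.5 ± 14, at ranks 74 and 107 among the 11414 genes whose exon length could be assigned. *Tssk3* followed at 235.4 ± 19.6, *Tssk6* at 187.1 ± 24.4 and *Tssk4* at 85.9 ± 4.0, at ranks 271, 372 and 892. The remaining genes were far lower. *Csnk2a2* was at 21.5 ± 1.14, *Tssk5* at 7.13 ± 0.413 and *Camk4* at 4.24 ± 0.307 (SD, n = 4 each), against a median of 4.69 over all genes, so that *Camk4* alone lay below that median. The exon length of *Camk4* in this annotation, 12453 bases, is the longest of the set, and its level per length depends on that length.

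**Figure D1:**
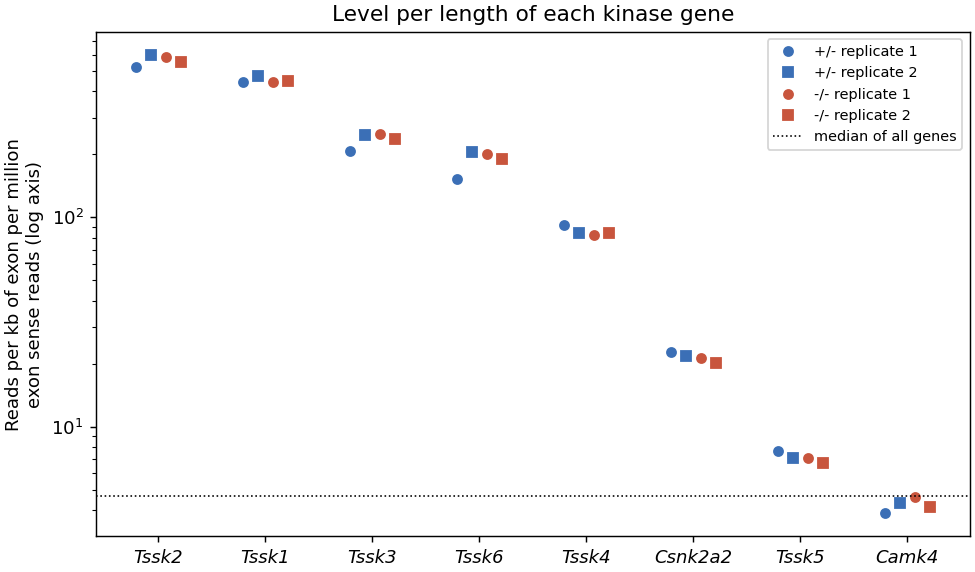
RPKM from exon sense reads (log axis) for each kinase gene, with circles and squares for replicates 1 and 2, blue for Nef-sp +/- and red for Nef-sp -/-, and a dotted line at the median of all genes (4.69). *Tssk2* is at the top with 525.5 to 596 and *Camk4* at the bottom with 3.87 to 4.60.

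The order of levels was the same in each of the 4 libraries. The closest neighbors were *Tssk2* and *Tssk1*, with a ratio of levels between 1.19 and 1.31 in the 4 libraries, and *Tssk3* and *Tssk6*, with a ratio between 1.20 and 1.36. In no pair of neighbors did the ranges over the libraries overlap. *Tssk2* took 36.1% to 36.9% of all TSSK reads and *Tssk1* 29.4% to 32%, while *Tssk5* took 0.474% to 0.580%. The 6 *Tssk* genes together made up 0.200% of exon sense reads in *Nef-sp* +/- replicate 1 (Wilson 95% interval 0.198 to 0.203), 0.226% in replicate 2 (0.224 to 0.227), and 0.219% and 0.213% in *Nef-sp* -/- replicates 1 and 2 (0.216 to 0.221 and 0.210 to 0.215). These intervals cover counting error only. The share was lowest in *Nef-sp* +/- replicate 1 and highest in *Nef-sp* +/- replicate 2, with both *Nef-sp* -/- libraries between them.

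To ask whether loss of NEF-sp altered these mRNAs, the genotypes were compared with the quasi-likelihood test of edgeR over all exon sense features, with TMM normalization and Benjamini-Hochberg adjustment. Normalized counts below are counts divided by the relative effective library size. The targeted gene, *Nef-sp* (2610020H08Rik in the table), had normalized counts of 1843 and 1693 in heterozygous and 407 and 497 in homozygous libraries, a log2 fold change of −1.97 (edgeR adjusted p = 4.1e-06, standard error 0.0921), in the direction its labels give. None of the 8 kinase genes passed the adjusted p threshold of 0.05, where 0.00932% of the 10728 tested features did. All 8 passed the expression filter of edgeR (minimum count 10). Their adjusted p was between 0.954 and 0.990, the smallest unadjusted p was 0.196 so that 0 of 8 had an unadjusted p below 0.05, where 4.8% of tested features had one. DESeq2 also called 0 of 8, and 0.0161% of 12415 features. The fitted log2 fold change was above 0 for 4 genes and below 0 for 4. Its median was 0.01 over the members and −0.0002 over all tested features, and the median absolute value was 0.07 in both. With whole tissue, a smaller number of cells of a type and less RNA per cell cannot be told apart.

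**Figure D2:**
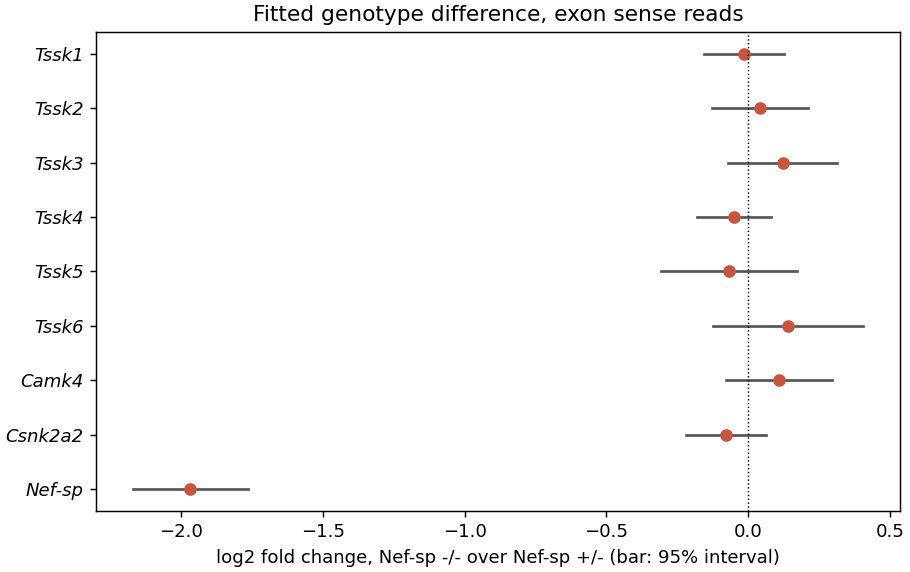
Fitted log2 fold change, homozygous over heterozygous (points), with 95% intervals (bars) for exon sense reads of the 8 kinase genes and of Nef-sp. The interval of each kinase gene includes 0, while Nef-sp lies at −1.97.

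For the neighboring genes at the top of the range, the genotypes overlapped. *Tssk1* had normalized counts of 11681 and 12831 in heterozygous and 12141 and 12122 in homozygous libraries, where both *Nef-sp* -/- values lay between the *Nef-sp* +/- values. Its log2 fold change was −0.02 (edgeR adjusted p = 0.990, standard error 0.0641), with a 95% interval from −0.16 to 0.13. *Tssk2* had normalized counts of 13274 and 15496 in heterozygous and 15235 and 14386 in homozygous libraries, again with the *Nef-sp* -/- values inside the *Nef-sp* +/- range. Its log2 fold change was 0.04 (95% interval −0.13 to 0.21, standard error 0.0769, edgeR adjusted p = 0.969). The ratio of *Tssk2* to *Tssk1* counts within a library, which does not depend on the normalization, was 1.14 and 1.21 in heterozygous and 1.25 and 1.19 in homozygous libraries, so that the genotypes overlapped.

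*Tssk3*, which encodes the shortest of these kinases by coding length (807 bases), had normalized counts of 4827 and 5935 in heterozygous and 6034 and 5684 in homozygous libraries. The genotypes overlapped, and *Nef-sp* +/- replicate 1 was the low library. The log2 fold change was 0.12 (95% interval −0.07 to 0.31, standard error 0.0876, edgeR adjusted p = 0.954). *Tssk6*, whose product takes part in the histone-to-protamine transition of spermatids, showed the same arrangement more strongly, with 3688 and 5155 in heterozygous and 5032 and 4744 in homozygous libraries. Its log2 fold change was 0.14 (edgeR adjusted p = 0.956, standard error 0.120), with a 95% interval from −0.12 to 0.40. The difference between the *Nef-sp* +/- replicates of *Tssk6*, 0.48 on the log2 scale, was larger than that of 95.3% of tested genes, against 0.0973 for the median gene.

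*Tssk4*, whose product acts on CREB and on the outer dense fiber protein ODF2, had normalized counts of 2820 and 2679 in heterozygous and 2632 and 2672 in homozygous libraries. Both *Nef-sp* -/- values were below both *Nef-sp* +/- values, by a margin of less than the *Nef-sp* +/- SD of 99.2. The log2 fold change was −0.05 (95% interval −0.18 to 0.08, standard error 0.0594, edgeR adjusted p = 0.956). *Tssk5*, the least abundant TSSK, had 212 and 201 in heterozygous and 202 and 189 in homozygous libraries, which overlapped, and a log2 fold change of −0.07 (95% interval −0.31 to 0.17, standard error 0.109, edgeR adjusted p = 0.962).

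*Camk4* (ENSMUSG00000038128, chr18:33098695-33355421 on mm9, plus strand) spans 256727 bases, with transcripts of 3 to 11 exons. It had normalized counts of 878 and 1011 in heterozygous and 1081 and 964 in homozygous libraries. The genotypes overlapped, and the log2 fold change was 0.11 (95% interval −0.08 to 0.30, standard error 0.0850, edgeR adjusted p = 0.954). With single libraries left out, the *Camk4* value ranged from 0.02 (without *Nef-sp* +/- replicate 1 or *Nef-sp* -/- replicate 1) to 0.22 (without *Nef-sp* +/- replicate 2). *Csnk2a2* had 1571 and 1539 in heterozygous and 1524 and 1420 in homozygous libraries, and was the other gene besides *Tssk4* without overlap between genotypes. Its log2 fold change was −0.08 (95% interval −0.22 to 0.06, standard error 0.0641, edgeR adjusted p = 0.954). Genotypes without overlap were thus seen in 2 of the 8 genes, both lower in homozygous libraries, and in 34.5% of all tested features, of which those lower in homozygous libraries made up 18.1% of all tested. The 95% intervals for *Tssk1*, *Tssk4* and *Csnk2a2* ran between 0.859 and 1.09 times the *Nef-sp* +/- level, while that of *Tssk6* reached 1.32 times and that of *Tssk5* went down to 0.807 times.

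**Figure D3:**
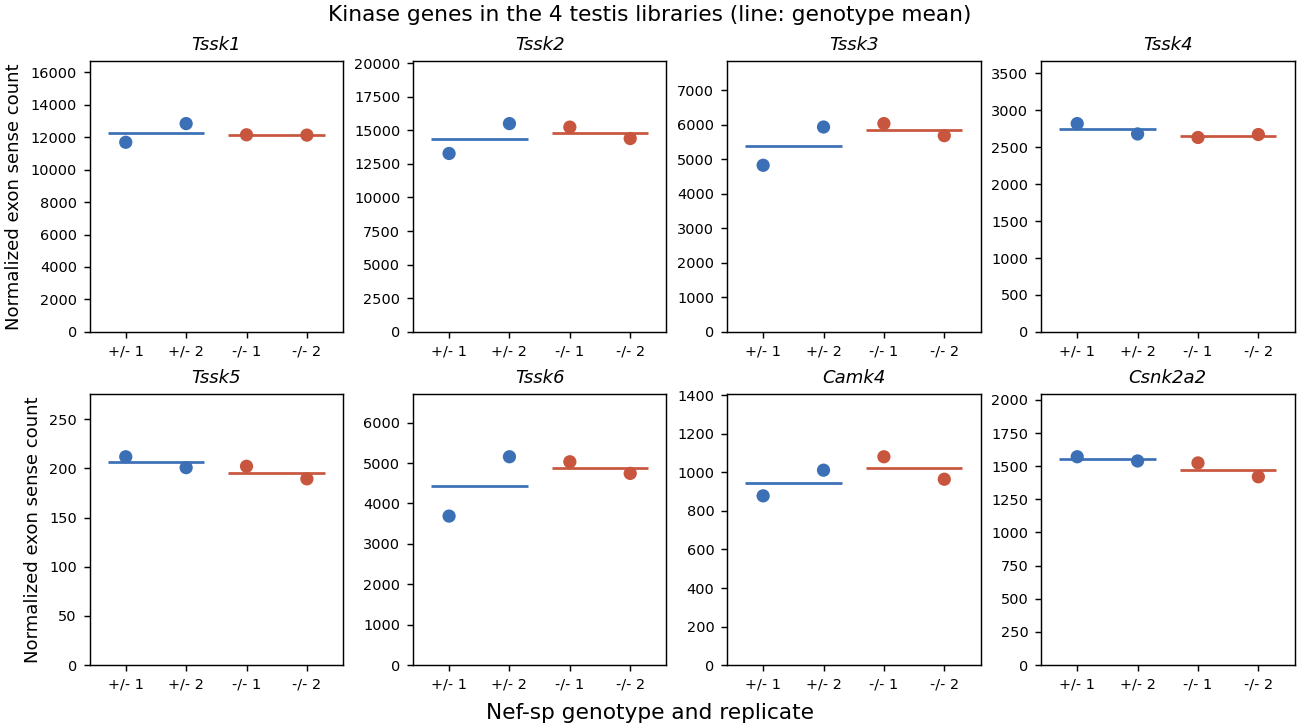
Normalized exon sense counts (linear axes from 0) of each kinase gene in the 4 libraries, blue for Nef-sp +/- and red for Nef-sp -/-, with a line at the mean of each genotype. The low point of *Tssk6* is Nef-sp +/- replicate 1 at 3688, against 4744 to 5155 in the other libraries.

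*Nef-sp* +/- replicate 1 had the lowest normalized count of the 4 libraries for 5 of the 8 genes (*Tssk1*, *Tssk2*, *Tssk3*, *Tssk6* and *Camk4*) and the highest for the other 3 (*Tssk4*, *Tssk5* and *Csnk2a2*). Over all tested features this library was the lowest for 26.8% and the highest for 27.2%. Its *Tssk6* count was 74.1% of the mean of the other libraries, that of *Tssk3* 82.0% and that of *Tssk2* 88.3%, whereas that of *Tssk4* was 106% and that of *Tssk5* 107%. The genes of the transition proteins and protamines, which replace histones in late spermatids, were low in the same library, with *Tnp1* at 83.3%, *Tnp2* at 81.8%, *Prm1* at 85.0% and *Prm2* at 76.7% of the mean of the other libraries. The acrosomal genes *Acrv1* and *Spaca1*, also listed as spermatid markers, were at 98.6% and 104%. The 5 spermatid markers (*Tnp1*, *Tnp2*, *Prm1*, *Acrv1* and *Spaca1*) summed to 220526 normalized counts in this library and to 257802 to 270705 in the others. The part that the content of late spermatids played in the kinase values was not tested. *Tssk6* has a GC content of 64.9%, above that of 99.7% of the genes with a GC value. Across 9963 genes, the deviation of a library from the other libraries had a Spearman's rho with GC content of 0.022 for *Nef-sp* +/- replicate 1, 0.191 for *Nef-sp* +/- replicate 2, where *Tssk6* was highest, 0.062 for *Nef-sp* -/- replicate 1 and −0.228 for *Nef-sp* -/- replicate 2. These values describe the libraries across genes, and the part of base composition in the *Tssk6* values was not tested.

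**Figure D4:**
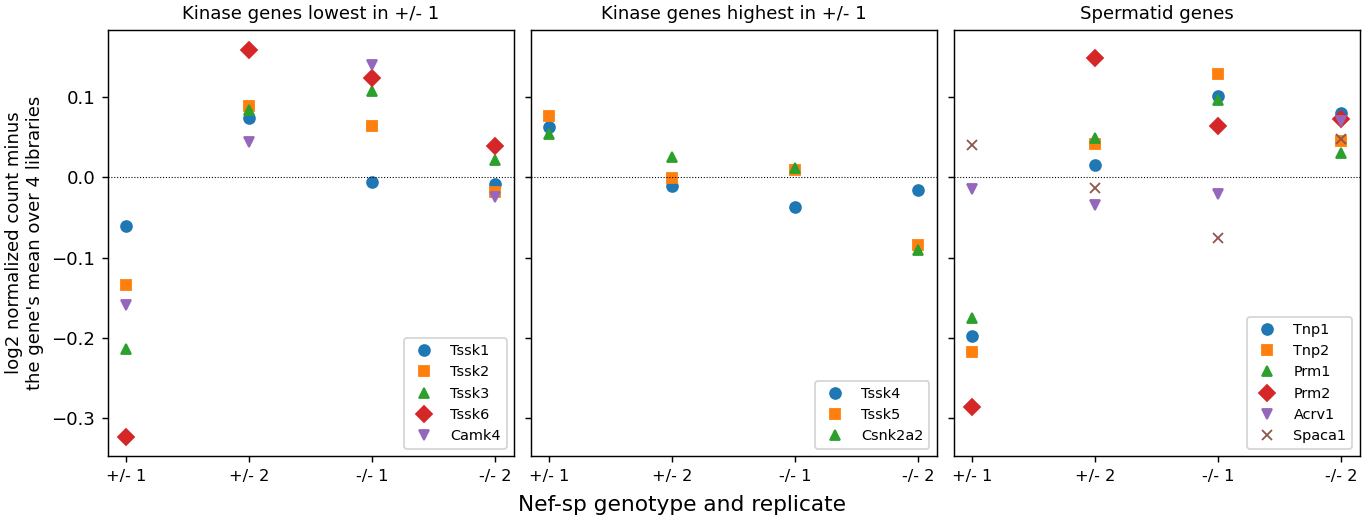
Deviation of each gene from its own mean over the 4 libraries (log2 of the normalized count plus 0.5) for the kinase genes lowest in Nef-sp +/- replicate 1 (left), those highest in it (middle) and 6 spermatid genes (right). In Nef-sp +/- replicate 1, *Tssk6* lies at −0.32 and *Tssk3* at −0.21, while *Tssk4*, *Tssk5* and *Csnk2a2* lie between 0.05 and 0.08.

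The values and calls differed with the *Nef-sp* +/- library that was kept. Without *Nef-sp* +/- replicate 2, so that replicate 1 stood alone for its genotype, 2 of the 8 genes passed in edgeR, *Tssk6* at 0.41 on the log2 scale (adjusted p = 4.6e-05) and *Tssk3* at 0.28 (adjusted p = 0.0062). In that fit 252 exon sense features passed, 221 higher and 31 lower in *Nef-sp* -/-, or 2.32% of those tested, among them *Tnp1*, *Tnp2*, *Prm1* and *Prm2*, each higher. Without *Nef-sp* +/- replicate 1 the log2 fold changes of *Tssk6* and *Tssk3* were −0.08 and −0.02, each with an adjusted p of 0.998 from edgeR, and 41 exon sense features (0.376%) passed, none of them a member. Those of *Tssk1*, *Tssk2* and *Camk4* were −0.08, −0.06 and 0.02 without replicate 1 and 0.05, 0.16 and 0.22 without replicate 2, none of them past the threshold. The lone library in these fits is taken to vary as the other genotype does. By chi-square per degree of freedom on raw counts, the *Nef-sp* -/- replicates differed less (3.52) than the *Nef-sp* +/- replicates (8.53). This measure grows with read depth and follows the most abundant genes. The median absolute log2 difference between replicates over all tested genes was nearly equal, 0.0965 for *Nef-sp* -/- and 0.0973 for *Nef-sp* +/-. The part of the replicate spread in the calls was not tested.

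Intron and antisense reads of the members were few, apart from *Csnk2a2* introns. None of the 5 rows that passed the expression filter had an adjusted p below 0.05 in edgeR, none had an unadjusted p below 0.05 and DESeq2 called none, with 0.0294% of 3403 intron sense and 0.0% of 1008 exon antisense features called. *Csnk2a2* intron sense reads numbered 382 and 637 in heterozygous and 363 and 342 in homozygous libraries, 21.6% to 22.6% of the sense reads of the gene, a higher share than in 94.7% of the 6127 genes with intron reads and at least 100 exon reads. Its intron log2 fold change was −0.15 (edgeR adjusted p = 0.9996, standard error 0.144). *Tssk5* also had a high share of intron reads, 12.5% to 18.9%, against a median gene at 1.33%. Its raw intron counts were 43 and 47 in heterozygous and 25 and 25 in homozygous libraries, without overlap after normalization, where 28.0% of intron sense features had none, and the log2 fold change was −0.50 (edgeR adjusted p = 0.9996, standard error 0.272). It was −0.28 without *Nef-sp* +/- replicate 1 and −0.76 without *Nef-sp* +/- replicate 2. *Tssk3* and *Tssk4* had intron shares of 0.229% to 0.498% and 0.524% to 1.01%, with log2 fold changes of −0.26 and −0.32 (adjusted p = 0.9996 each from edgeR). With single libraries left out, the intron values ranged from −0.52 to −0.06 for *Tssk3* and from −0.27 to −0.06 for *Csnk2a2*, and none passed the threshold. *Camk4* had only 3, 7, 5 and 4 intron sense reads in *Nef-sp* +/- replicates 1 and 2 and *Nef-sp* -/- replicates 1 and 2, too few to be tested, although its introns are the longest of the set.

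Antisense exon rows were found for the neighboring genes *Tssk1* and *Tssk2*. *Tssk1* had 42 and 69 antisense reads in heterozygous and 49 and 45 in homozygous libraries, 0.377% to 0.464% of its exon reads. After normalization these were 48.5 and 48.3 against 56.6 and 53.6, without overlap between genotypes, where 30.3% of exon antisense features had none. The log2 fold change was 0.19 (95% interval −0.27 to 0.65, standard error 0.230, edgeR adjusted p = 0.999). The *Dgcr2* gene on the opposite strand starts 57 bases upstream of *Tssk1*, and no annotated gene overlaps *Tssk1*. *Tssk2* had 3, 3, 2 and 5 antisense reads in the same order of libraries and did not pass the filter.

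Genes that work with these kinases, and related kinases, were followed in 5 lists of 64 genes, of which 57 were found in the table and 55 were tested. edgeR called 0 of the 55, with adjusted p between 0.954 and 0.999, DESeq2 called 0, and 2 had an unadjusted p below 0.05, beside 4.8% of all tested features. Their median log2 fold change was 0.006. All 7 partners and substrates of TSSKs were tested, 5 with a fitted value above 0 and 2 below, with a median of 0.05. The most abundant of them were *Odf2*, a sperm tail fiber gene, with 86133 and 97812 normalized counts in heterozygous and 100832 and 96162 in homozygous libraries (log2 fold change 0.10), the chaperone gene *Hsp90aa1* (0.01) and the phosphatase gene *Ppp1cc* (−0.02). *Tsks*, a substrate of TSSK1 and TSSK2 that is listed as *Stk22s1* and was chosen after its values were seen, had 9416 and 11543 in heterozygous and 11590 and 10654 in homozygous libraries, a log2 difference of 0.08 between genotypes (edgeR adjusted p = 0.956). *Tsacc*, the co-chaperone of TSSK6 listed as *1700021C14Rik* and likewise chosen after its values were seen, had a log2 fold change of 0.09 (edgeR adjusted p = 0.954), without overlap between the genotypes. In the fit without *Nef-sp* +/- replicate 2, 4 of the 55 genes passed, *Odf2*, *Prm2*, *Tsks* and *Csnk1g2*, each higher in *Nef-sp* -/-, where 2.32% of all tested features passed. Without *Nef-sp* +/- replicate 1 none of the 55 passed, where 0.376% of features did, and the log2 fold changes of these genes were 0.01 for *Odf2*, −0.08 for *Prm2*, −0.05 for *Tsks* (*Stk22s1*) and −0.10 for *Csnk1g2*.

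Of the *Camk4* pathway, 13 of 16 genes were tested, 7 with a fitted value above 0 and 6 below, and a median of 0.02. Its most abundant genes included *Prm2*, with a log2 fold change of 0.12, and *Calm2*, a calmodulin gene, with −0.03. Of the CK2 and CK1 kinase genes, 7 of 8 were tested, 3 above and 4 below 0. *Csnk2a1*, the paralog of *Csnk2a2* that encodes the other catalytic subunit, was named after its values were seen: it had 716 and 678 normalized counts in heterozygous and 717 and 782 in homozygous libraries, and a log2 fold change of 0.11 (adjusted p = 0.954 from edgeR). *Csnk2b*, for the regulatory subunit, had −0.01, *Csnk1g2* 0.09 and *Csnk1a1* −0.04. The kinases related to AMPK, the wider group to which TSSKs are close by sequence, had 14 of 17 genes tested, 8 above and 6 below 0, with *Mark3* at 0.09, *Stk11* at 0.01 and *Mark2* at −0.18. Of the other kinases of germ cells, 14 of 16 were tested, 7 above and 7 below 0, with *Tesk1* at −0.02, *Nek2* at −0.005 and *Mak* at 0.005. Genotypes did not overlap in 21 of the 55 genes, beside 34.5% of all tested features.

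The profile over the 4 libraries was compared with those of 91 other genes, the other members and the tested genes of the kinase and cell marker lists, by the Euclidean distance of centered log2 normalized counts. The nearest gene was *Csnk1g2* for *Tssk6* (distance 0.078), *Uchl1* for *Tssk3* (0.0407), *Fhl5* for *Tssk2* (0.0527), *Csnk1d* for *Tssk1* (0.0512) and *Snrk* for *Camk4* (0.0694). It was *Calm2* for *Tssk4* (0.03), *Hsp90ab1* for *Tssk5* (0.0285) and *Hspa2* for *Csnk2a2* (0.0145). Among the members the widest distance, 0.463, separated *Tssk5* from *Tssk6*.

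The markers of testicular cells were present, and edgeR called none of them. The summed normalized counts of 5 spermatid markers were 220526 and 257802 in heterozygous and 270705 and 260706 in homozygous libraries, and those of 5 spermatocyte markers 62950 and 61049 against 59982 and 58037. The sums of both lists did not overlap between genotypes, but a sum follows its most abundant genes. Gene by gene, genotypes did not overlap in 2 of the 5 spermatid and 1 of the 5 spermatocyte markers, beside 34.5% of all tested features. Leydig cell markers summed to 17729 and 18053 in heterozygous and 16893 and 14212 in homozygous libraries. Among them *Cyp11a1* and *Cyp17a1*, steroid synthesis genes named after their values were seen, were lower in both homozygous libraries. Their log2 fold changes were −0.35 and −0.27 (edgeR adjusted p = 0.859 and 0.954). The remaining Leydig cell markers, *Insl3*, *Star* and *Hsd3b6*, had fitted values above 0 (0.18, 0.08 and 0.01) and overlapping genotypes. The median over the 5 Leydig cell markers was 0.01. Spermatogonia markers summed to 943 and 1058 against 1076 and 1098, and myoid cell markers to 1426 and 1388 against 1236 and 1361, also without overlap. Of the single genes tested, 0 of 3 spermatogonia and 1 of 4 myoid cell markers did not overlap. Sums for Sertoli cells, between 2284 and 2429, and for macrophages, between 852 and 1009, overlapped. The part of these cell types in the kinase values was not tested. No marker found in the table was at 0 in all libraries (the macrophage marker *Cd14* was at 0 in *Nef-sp* +/- replicate 1), and 1 Sertoli cell marker, *Rhox5*, was not matched.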

How the data were processed

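Strand-specific, ribosomal RNA-depleted testis libraries of 2 genotypes, *Nef-sp* -/- and *Nef-sp* +/-, were grouped by sample title (n = 2 each). After adapter removal, the authors aligned reads to mm9 by software of their own, accepting perfect matches, and deposited raw counts for every feature by annotation category and strand. Software versions, and what was done with multiply matching reads, are not given in the sources used here. Their DESeq2 mean, fold change and p-value columns were not used. The table lists only features whose 4 counts sum to 5 or more, and its counted reads numbered 20659865 to 34442517 per library.

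Each annotation category was fitted whole with edgeR 4.0.16 in R 4.3.3 (quasi-likelihood test, TMM, filterByExpr with minimum count 10, no covariate), and p-values were adjusted within it by Benjamini-Hochberg. Standard errors came from the fold change and its F statistic, and the 95% intervals from these errors. The fits were tested on simulated data. DESeq2 1.42.0 was an alternative. Replicates differed by more than counting noise (chi-square per degree of freedom 8.53 for *Nef-sp* +/- and 3.52 for *Nef-sp* -/-).

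Exon lengths, coordinates and sequences came from GENCODE vM1 and mm9, by symbol, for 11414 of 12415 exon sense features, and gave RPKM. Wilson intervals of read shares (95%) cover counting error only. Of the 64 list genes, 53 matched by symbol and 4 by RefSeq synonym. The members, the lists of partners, related kinases and cell markers, and the rule for named genes (all members, called list genes, the 3 most abundant of each kinase list, the nearest profile) were chosen with earlier results of these data known. A gene that the rule names is not reported here. Figures were drawn with matplotlib 3.10.9.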

Additional observations from a re-analysis of the deposited data

How the results depend on the processing

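The log2 fold change of *Nef-sp* stayed between −2.11 and −1.83 and past the threshold in all 11 alternatives, with adjusted p between 1.7e-92 and 0.0013 from edgeR or DESeq2. The number of exon sense features called was 2 with DESeq2 in place of 1, and 1 to 252 with single libraries removed. The number of kinase members called was 0 in the alternatives that kept all libraries and 0 to 2 when each library was left out, and that of list genes was 0 to 4, in each case highest without *Nef-sp* +/- replicate 2. Over the 8 members and 11 alternatives, 81 of 88 exon sense log2 fold changes kept their direction and stayed uncalled, and 5 changed sign, all of them with a library left out: *Tssk1* without *Nef-sp* +/- replicate 2, *Tssk2*, *Tssk3* and *Tssk6* without *Nef-sp* +/- replicate 1, and *Tssk2* without *Nef-sp* -/- replicate 1 (−0.00034). Over the removals, *Tssk1* ranged from −0.080 to 0.055, *Tssk2* from −0.064 to 0.158, *Tssk3* from −0.018 to 0.280 and *Tssk6* from −0.076 to 0.407, of which *Tssk3* and *Tssk6* were called at their highest values. *Camk4* ranged from 0.017 to 0.220, *Tssk4* from −0.088 to −0.014, *Tssk5* from −0.118 to −0.020 and *Csnk2a2* from −0.131 to −0.025, uncalled. *Tssk4* intron sense reads ranged from −0.802 to 0.0062, changing sign without *Nef-sp* -/- replicate 1. The cause was not tested beyond the removal of the library itself. Levels per length moved by less than the SD over libraries with the longest transcript as the length. The labels do not say that same-numbered libraries belong together, and their deviations had a correlation of −0.08 over exon sense features. With the replicate number as a block, *Nef-sp* was at −1.97 (adjusted p = 1.2e-04 from edgeR), 1 exon sense feature was called, and 0 members and 0 list genes. In the intron categories the correlation was −0.14 for sense and −0.11 for antisense reads, and with the numbers crossed, an alternative chosen after seeing these values, 0 intron or antisense rows of members were called. With 2 libraries per genotype, changes of the members smaller than their intervals were not detectable. Larger changes could also go uncalled, because the intervals are per gene and not adjusted for the number of features.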

Other observations

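The promoters of 6 members were in the RefSeq table for GRCm38.p6, which gives 250 bases before and 50 after each start, while *Camk4* and *Tssk5* were not in it. The cAMP response element TGACGTCA, which CREB and its testis relative CREM bind, was searched on both strands and found in 0 of the 6 promoters and in 1.88% of 27025 promoters. Its half-site TGACG, which the full element also holds, was found in *Tssk6* alone, and in 21.0% of all promoters. The letters TATAAA of the TATA box were found in 0 of the 6 and in 14.2% of all, and CCAAT in *Tssk3* and *Tssk4* and in 37.9% of all. A match describes these letters in this window only, and none of these counts was tested.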
